A study of Mus musculus with 12 samples.

Results

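Complement genes were described here as a group of 9: C1ra, C1s1, C2, C4b, C3, Cfb, C6, C7 and Serping1. They were chosen by symbol, as the entries of the deposited raw count table that carry these names, 9 of 33352 genes in the table. All 9 passed the filter on low counts and were among the 19016 genes tested. The 12 libraries were poly(A) RNA from 4 populations sorted by flow cytometry out of the aorta and the fat around it, 3 libraries each. The populations were the smooth muscle cell populations SMC2 and SMC1, the intermediate cells (Intermediate) and the progenitor cells (Progenitor). All came from wild-type male CD-1 mice, an outbred strain, aged 13 weeks. The series concerns the lineage of thermogenic perivascular fat. Which antibodies and gates defined the sort is not stated in the sources used here. The labels use the same replicate numbers in all 4 populations, and the main tests did not pair libraries by number. The numbers do not say whether a library is 1 animal or a pool, or whether same-numbered libraries share animals. A p-value therefore refers to the spread among these libraries, part of which may be technical.

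Complement is a cascade of secreted proteases and binding proteins that marks surfaces for clearance and can end in a pore in the target membrane. In the classical pathway the proteases C1r and C1s act in turn, and C1s cleaves C4 and C2. Their products form an enzyme that splits C3, while in the alternative pathway factor B takes the place of C2. C6 and C7 belong to the terminal pore-forming complex, and the C1 inhibitor, the product of Serping1, blocks C1r and C1s. The liver supplies most circulating complement, and fibroblasts and other stromal cells make several components locally.

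Levels are given as CPM, counts scaled to library size, and as CPM per kilobase of exon where genes are compared with each other. Changes are on the log2 scale, each followed by ± its standard error. A gene is termed higher or lower where edgeR's quasi-likelihood test gave an adjusted p below 0.05 (Benjamini-Hochberg over all genes tested). Library totals ran from 13258631 to 22647175 counts. The labelled cell types carried their markers: the summed level of 8 smooth muscle genes was 21900 to 30880 CPM in SMC2 and 31790 to 37950 CPM in SMC1, against 553 to 697 CPM in Intermediate and 239.5 to 577 CPM in Progenitor. The summed level of 9 fibroblast or stromal genes was 1002 to 1990 CPM in SMC2 and 5620 to 7933 CPM in SMC1, against 71820 to 80380 CPM in Intermediate and 78050 to 88990 CPM in Progenitor. Leukocyte markers summed to 19.5 to 92.1 CPM and hepatocyte markers to 0.513 to 3.36 CPM over the 12 libraries. In bulk RNA, fewer cells that make a transcript and less of it per cell cannot be told apart.

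The complement genes were mostly transcripts of the 2 stromal populations. Together they took 0.182%, 0.180% and 0.190% of all counts in SMC2 and 0.0823%, 0.0546% and 0.0633% in SMC1. In Intermediate they took 1.08%, 1.10% and 1.12%, against 1.18%, 1.46% and 1.65% in Progenitor. Per kilobase, Serping1 was the most abundant member in each population, with mean levels of 427 CPM per kb in SMC2, 130 CPM per kb in SMC1, 2196 CPM per kb in Intermediate and 1796 CPM per kb in Progenitor. C3 was next in Progenitor at 1042 CPM per kb and C7 next in Intermediate at 1031 CPM per kb. C1s1 was next in SMC2 at 88.9 CPM per kb and in SMC1 at 27.5 CPM per kb. The order of the 4 group means was the same in the authors' deposited normalized counts for each of the 9 genes.

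**Figure D1:**
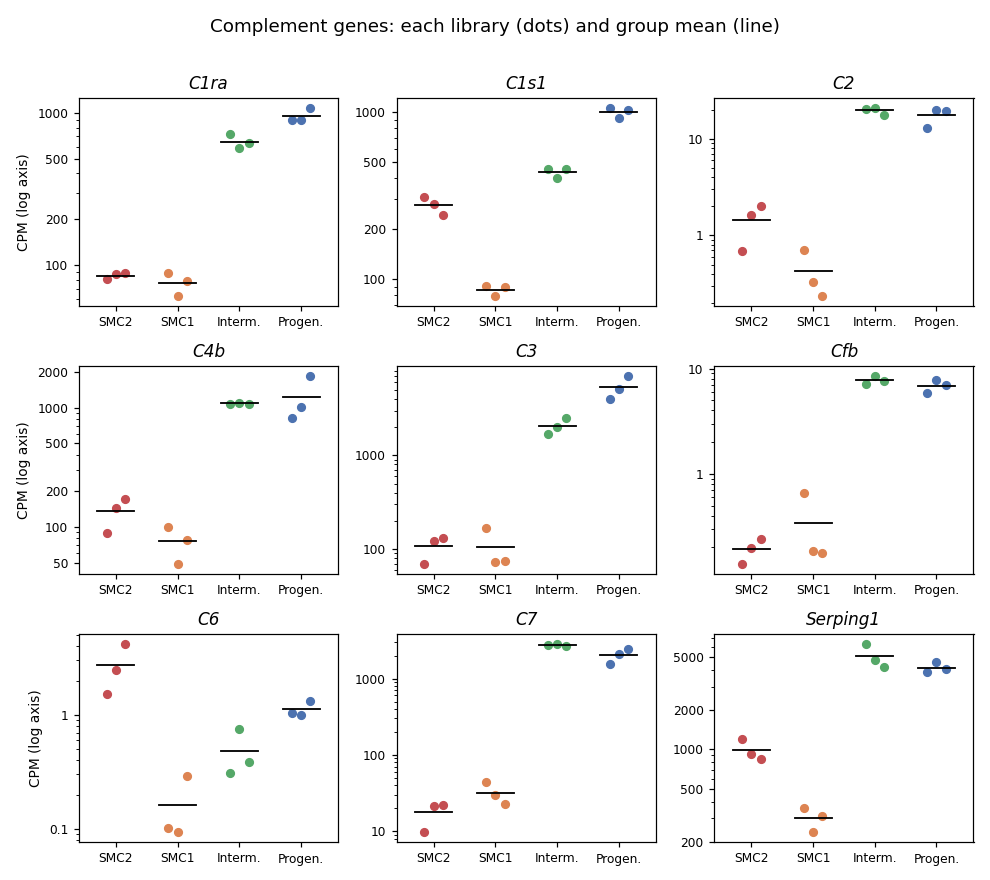
Level of each complement gene in CPM (vertical log axes, scaled separately) in the 12 libraries, with groups along the horizontal axis, dots for libraries and a line for the group mean of 3. C6 is highest in SMC2 (1.52 to 4.20 CPM), while C7 spans 9.66 to 22.3 CPM in SMC2 and 2658 to 2852 CPM in Intermediate.

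Against Progenitor, all 9 complement genes were lower in SMC1, where 23.1% of all genes tested were lower, and 0 were higher (25.3% of all genes). In SMC2, 8 were lower than in Progenitor (21.7% of all genes) and 1, C6, was higher (23.1% of all genes). Against Intermediate, 8 were lower in SMC1 (21.9% of all genes), 0 were higher (19.7% of all genes) and 1, C6, was not called. In SMC2, 8 were lower than in Intermediate (23.2% of all genes) and C6 was higher (21.4% of all genes). Between the stromal populations, C1s1, C1ra and C3 were lower in Intermediate than in Progenitor, 3 of 9, where 9.46% of all genes were lower, and 0 were higher by edgeR, also at an unadjusted p below 0.05 and by DESeq2, where 12.7% of all genes were higher. Between the smooth muscle populations, 5 of 9 were higher in SMC2 than in SMC1 (16.5% of all genes) and 1 was lower (18.1% of all genes). The median log2 change of the 9 genes was -4.03 in SMC1 and -3.49 in SMC2 against Progenitor, beside medians over all genes of -0.0049 and 0.06. It was -0.18 for Intermediate against Progenitor, beside 0.08 over all genes, and 0.83 for SMC2 against SMC1, beside -0.0028 over all genes. These comparisons share libraries, so they are not independent of each other. Of 9 mesothelial markers, 8 were higher and 1 lower in Intermediate than in Progenitor, with summed levels of 15.7 to 39.8 CPM in SMC2, 37.1 to 71.0 CPM in SMC1, 178 to 431 CPM in Intermediate and 42.8 to 69.7 CPM in Progenitor. Of 4 plasma or B cell markers, 2 were lower in Intermediate than in Progenitor, with sums of 1.80 to 25.6 CPM in SMC2, 25.3 to 52.8 CPM in SMC1, 1.37 to 4.34 CPM in Intermediate and 60.6 to 73.3 CPM in Progenitor. Of 6 endothelial markers, 4 were lower in SMC2 than in SMC1, with sums of 45.6 to 121 CPM in SMC2, 291 to 381 CPM in SMC1, 89.3 to 135 CPM in Intermediate and 165 to 225 CPM in Progenitor. Tek alone had a mean of 112.8 CPM in Progenitor and 14.0 CPM in Intermediate. The other 5 endothelial markers were not called between Intermediate and Progenitor. Of 4 Schwann cell markers, 3 were higher in SMC2 than in SMC1, with sums of 45.7 to 93.2 CPM in SMC2, 16.3 to 27.2 CPM in SMC1, 9.33 to 12.3 CPM in Intermediate and 11.3 to 12.3 CPM in Progenitor. The part of these cell types in the member levels was not tested.

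**Figure D2:**
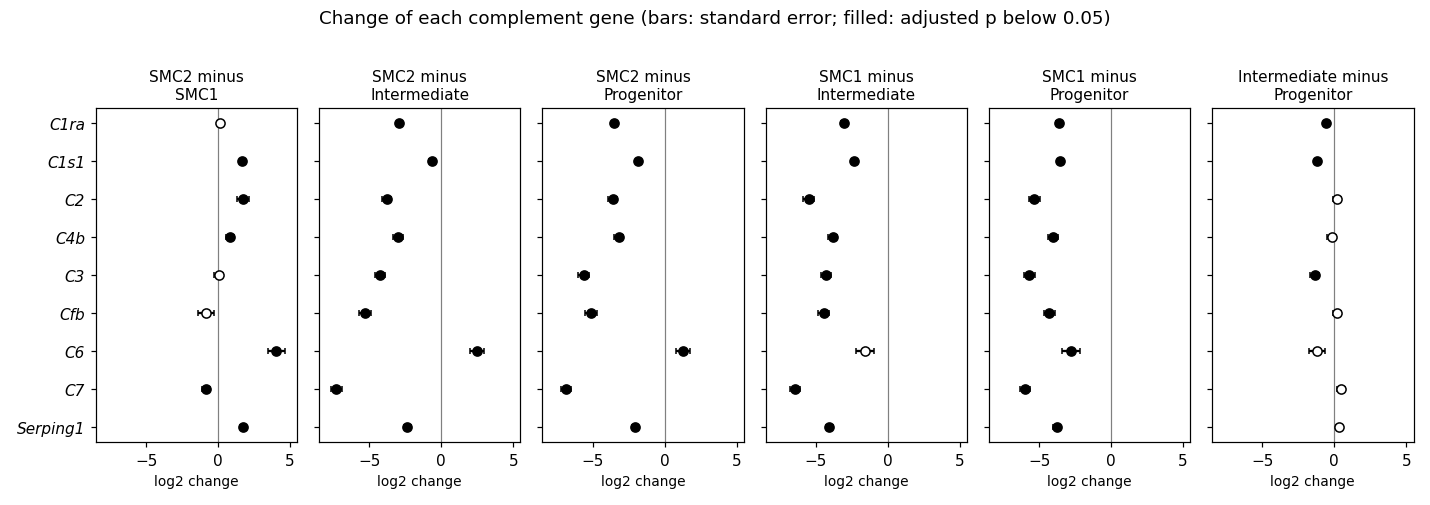
Log2 change of each complement gene in the 6 comparisons of the 4 populations (horizontal axes), with bars for the standard error and filled points for an adjusted p below 0.05. C6 lies at 4.05 in SMC2 minus SMC1 and 1.27 in SMC2 minus Progenitor, while C7 reaches -7.29 in SMC2 minus Intermediate.

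Sequence from 250 bases before to 50 bases after the annotated start was found in the RefSeq promoter table (build GRCm38.p6) for 5 of the 9 genes: C1ra, C1s1 with 2 starts, C3, C6 and C7. They are shown because C1ra and C1s1, and likewise C6 and C7, are close neighbours in the genome whose levels diverged between populations, and because C3 had the largest gap between the stromal populations among called members. The windows are chr6:124512371-124512670 on the plus strand for C1ra, chr6:124542310-124542609 on the minus strand for C1s1, chr17:57228087-57228386 on the minus strand for C3, chr15:4726960-4727259 on the plus strand for C6 and chr15:5063724-5064023 on the minus strand for C7. Each is printed 5' to 3' along the gene, with motif matches in capitals.
C1ra: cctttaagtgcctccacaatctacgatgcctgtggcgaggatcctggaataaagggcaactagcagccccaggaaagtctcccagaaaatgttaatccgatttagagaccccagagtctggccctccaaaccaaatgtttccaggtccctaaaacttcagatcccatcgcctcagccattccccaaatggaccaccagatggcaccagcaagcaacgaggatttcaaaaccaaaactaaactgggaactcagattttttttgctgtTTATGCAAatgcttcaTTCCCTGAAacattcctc
C1s1: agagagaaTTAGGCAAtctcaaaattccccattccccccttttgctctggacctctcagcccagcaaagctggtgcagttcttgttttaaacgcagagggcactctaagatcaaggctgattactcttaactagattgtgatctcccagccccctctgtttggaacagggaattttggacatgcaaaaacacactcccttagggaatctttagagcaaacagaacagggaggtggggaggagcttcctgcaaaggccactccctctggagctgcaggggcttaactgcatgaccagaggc
C3: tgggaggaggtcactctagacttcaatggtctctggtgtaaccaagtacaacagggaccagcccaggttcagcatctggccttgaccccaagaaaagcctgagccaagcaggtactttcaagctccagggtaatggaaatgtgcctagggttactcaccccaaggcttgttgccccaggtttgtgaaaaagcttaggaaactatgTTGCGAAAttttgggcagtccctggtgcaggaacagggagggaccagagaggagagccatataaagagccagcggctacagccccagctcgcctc
C6: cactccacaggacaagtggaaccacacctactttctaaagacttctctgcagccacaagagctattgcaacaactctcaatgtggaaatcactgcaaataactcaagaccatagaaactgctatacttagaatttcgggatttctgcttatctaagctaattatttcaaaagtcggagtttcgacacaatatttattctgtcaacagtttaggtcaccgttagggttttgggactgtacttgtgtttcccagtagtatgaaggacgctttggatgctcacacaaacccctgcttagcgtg
C7: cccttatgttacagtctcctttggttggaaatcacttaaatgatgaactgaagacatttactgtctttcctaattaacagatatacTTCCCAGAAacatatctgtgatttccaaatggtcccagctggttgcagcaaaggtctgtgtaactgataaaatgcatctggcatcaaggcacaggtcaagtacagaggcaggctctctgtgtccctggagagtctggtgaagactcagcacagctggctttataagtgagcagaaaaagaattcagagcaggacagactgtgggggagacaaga
The motifs searched, on both strands, were the STAT site GAS (TTCNNNGAA), C/EBP (TTGCNNAA), the GC box (GGGCGG), the interferon-stimulated response element and NF-kB. No matches overlapped each other. The C1ra window held a C/EBP match from base 17 and a GAS match from base 33 after the start. In GENCODE M21, however, C1ra starts further upstream, at chr6:124512405, near the first base of this window. Both matches lie inside that gene model. The starts used for C6 and C7 also differ from those of GENCODE M21, by fewer bases. The C1s1 window held a C/EBP match from base -242, which the window of its other start, chr6:124542272-124542571, does not reach. The C3 window held a C/EBP match from base -45 and the C7 window a GAS match from base -164, and no match was found in the C6 window. Among all 32851 promoters of the table, 8.3% held the GAS letters, 10.8% C/EBP, 35.7% the GC box, 3.44% the response element and 4.79% NF-kB. A match describes letters in the window and not a bound site.

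C1ra and C1s1 encode the proteases that start the classical pathway, C1r and C1s. In GENCODE M21 (GRCm38), C1ra (ENSMUSG00000055172) lies at chr6:124512405-124523443 on the plus strand and C1s1 (ENSMUSG00000038521) at chr6:124530345-124542359 on the minus strand. The 2 genes point towards each other with 6901 bases between them. C1ra had 80.9, 86.9 and 88.7 CPM in SMC2 and 88.2, 62.5 and 78.9 CPM in SMC1. It had 724, 591 and 630 CPM in Intermediate, against 901, 899 and 1081 CPM in Progenitor. The smooth muscle populations overlapped, both stood far below the stromal ones, and every Intermediate library stood below every Progenitor library. C1ra was lower in SMC2 than in Progenitor (log2 change -3.49 ± 0.192, adjusted p = 6.26e-12) and lower in SMC1 (log2 change -3.65 ± 0.194, adjusted p = 4.72e-12). It was lower than in Intermediate too, in SMC2 (-2.92 ± 0.188, adjusted p = 5.67e-11) and in SMC1 (-3.08 ± 0.189, adjusted p = 4.41e-11). C1ra was lower in Intermediate than in Progenitor (log2 change -0.57 ± 0.175, adjusted p = 0.0241), a call that was lost without Intermediate replicate 2 (-0.49, adjusted p = 0.14), without Intermediate replicate 3 (-0.52, adjusted p = 0.0911) or without Progenitor replicate 3 (-0.46, adjusted p = 0.097). SMC2 and SMC1 were not called different for C1ra (0.16 ± 0.176, adjusted p = 0.511).

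C1s1 followed another order. It had 311, 283 and 240.1 CPM in SMC2 and 90.4, 78.6 and 89.5 CPM in SMC1. It had 455, 404 and 458 CPM in Intermediate, against 1061, 920.4 and 1021 CPM in Progenitor. No 2 populations overlapped, and the order from the top was Progenitor, Intermediate, SMC2 and SMC1. Each neighbouring pair was called: C1s1 was lower in Intermediate than in Progenitor (log2 change -1.19 ± 0.168, adjusted p = 3.16e-05), lower in SMC2 than in Intermediate (log2 change -0.66 ± 0.167, adjusted p = 0.00273) and higher in SMC2 than in SMC1 by 1.69 ± 0.171 (adjusted p = 1.42e-07). Against Progenitor, C1s1 was lower in SMC2 (-1.85 ± 0.171, adjusted p = 1.41e-08), and in SMC1 it was 11.6-fold lower. Part of this gene, 18.4% of its exon bases, overlaps the antisense gene model Gm16567. The library kit does not mark strand, so reads of these genes cannot be told apart there. How such reads were counted is not stated in the sources used here.

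The proportion of C1s1 to C1ra counts is given here as a description, with no test. For every 100 C1ra counts there were 385, 325 and 271 C1s1 counts in SMC2 and 102, 126 and 113 in SMC1. There were 62.9, 68.4 and 72.7 in Intermediate, against 118, 102 and 94.5 in Progenitor. The SMC2 libraries lay above and the Intermediate libraries below all others, while SMC1 and Progenitor overlapped. Close copies of these genes were counted beside them. C1s2, a close copy of C1s1, had 8.19 ± 0.127 counts per 100 C1s1 counts in SMC2 and 8.33 ± 0.98 in SMC1. It had 8.79 ± 0.859 in Intermediate, against 8.47 ± 0.517 in Progenitor (SD, n = 3 each). C1rb, a copy of C1ra, had group means of 3.97 to 4.67 counts per 100 C1ra counts. How reads that match both copies were assigned is not stated in the sources used here, which leaves the levels of the copies uncertain.

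**Figure D3:**
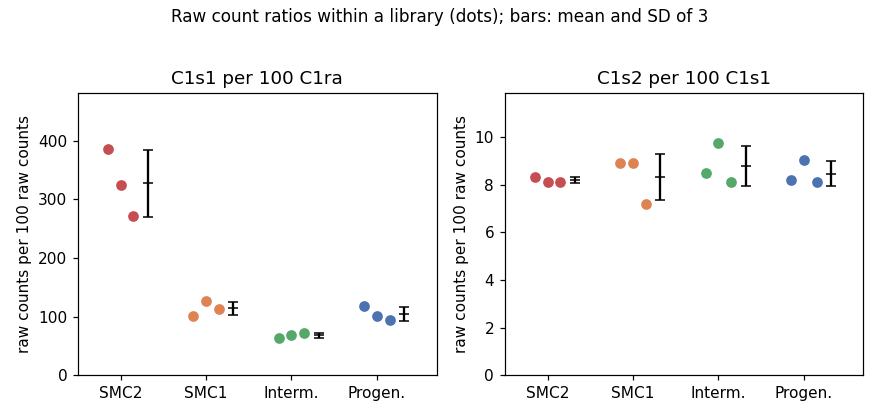
Raw counts of C1s1 per 100 C1ra counts (left) and of C1s2 per 100 C1s1 counts (right) in each library (dots), with bars for the mean and SD of 3 libraries. The C1s1 proportion runs from 271 to 385 in SMC2 and from 62.9 to 72.7 in Intermediate, while C1s2 stays at group means of 8.19 to 8.79.

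C2 and C4b encode the substrates of C1s. C4b (ENSMUSG00000073418), at chr17:34728380-34743882, and C2 (ENSMUSG00000024371), at chr17:34862604-34898265, lie on the minus strand of the major histocompatibility region. C4b had 88.4, 144 and 170.3 CPM in SMC2 and 99.7, 48.3 and 78.0 CPM in SMC1. It had 1076, 1101 and 1072 CPM in Intermediate, against 817, 1014 and 1852 CPM in Progenitor. The 2 stromal populations overlapped, with Progenitor replicate 3 well above the rest, and the 2 smooth muscle populations overlapped too. C4b was lower in SMC2 than in Progenitor (log2 change -3.19 ± 0.326, adjusted p = 2.23e-07) and in SMC1 (log2 change -4.03 ± 0.339, adjusted p = 1.8e-08). It was also lower than in Intermediate in SMC2 (-3.01 ± 0.323, adjusted p = 4.11e-07) and in SMC1 (-3.85 ± 0.336, adjusted p = 3.6e-08). Intermediate against Progenitor was not called (-0.18 ± 0.299, adjusted p = 0.715), and without Progenitor replicate 3 the difference was 0.25. C4b was higher in SMC2 than in SMC1 by 0.83 ± 0.303 (adjusted p = 0.0418). That call was lost without SMC2 replicate 2 (adjusted p = 0.106) or 3 (0.164) and without SMC1 replicate 2 (0.161) or 3 (0.0859). It was also lost without Intermediate replicate 1 (0.0608), 2 (0.0544) or 3 (0.0565) and without Progenitor replicate 2 (0.051), and in a fit of these 2 groups only (0.0511). C4a, a close copy of C4b, was rare: it had 0.661 ± 0.101 counts per 100 C4b counts in SMC2 and 0.884 ± 1.16 in SMC1, and 0.101 ± 0.0172 in Intermediate, against 0.113 ± 0.0225 in Progenitor (SD, n = 3 each).

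C2 was rarer than C4b, at a mean level of 5.12 CPM per kb in Intermediate beside 190.1 CPM per kb for C4b. C2 had 0.690, 1.63 and 2.04 CPM in SMC2 and 0.713, 0.326 and 0.234 CPM in SMC1. These are 15, 33 and 34 raw counts in SMC2 and 14, 7 and 4 raw counts in SMC1. It had 20.5, 21.1 and 17.9 CPM in Intermediate, against 12.9, 20 and 19.7 CPM in Progenitor. The stromal populations overlapped, and SMC2 and SMC1 overlapped through SMC2 replicate 1 and SMC1 replicate 1. C2 was lower in SMC2 than in Progenitor (log2 change -3.61 ± 0.320, adjusted p = 1.14e-08) and in SMC1 (log2 change -5.33 ± 0.374, adjusted p = 3.89e-10; -5.97 without SMC1 replicate 1). Against Intermediate the changes were -3.79 ± 0.321 in SMC2 (adjusted p = 5.56e-09) and -5.51 ± 0.374 in SMC1 (adjusted p = 3.04e-10). It was higher in SMC2 than in SMC1 by 1.72 ± 0.427 (adjusted p = 0.00365), and Intermediate against Progenitor was not called (0.18 ± 0.267, adjusted p = 0.673).

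C3 and Cfb encode the central component and factor B, the alternative pathway protease that joins it. C3 (ENSMUSG00000024164) lies at chr17:57203970-57228136 on the minus strand. C3 had 68.9, 123 and 132 CPM in SMC2 and 168, 72.3 and 74.2 CPM in SMC1. It had 1708, 2008 and 2471 CPM in Intermediate, against 3957, 5059 and 7059 CPM in Progenitor. Every Progenitor library was above every Intermediate library, and the smooth muscle populations overlapped far below. C3 was lower in Intermediate than in Progenitor (log2 change -1.38 ± 0.324, adjusted p = 0.00506). It was lower in SMC2 than in Progenitor (log2 change -5.63 ± 0.388, 49.5-fold, adjusted p = 1.03e-09) and in SMC1 (log2 change -5.68 ± 0.389, 51.2-fold, adjusted p = 9.99e-10). Against Intermediate it was lower in SMC2 (-4.25 ± 0.364, adjusted p = 1.86e-08) and in SMC1 (-4.30 ± 0.364, adjusted p = 2.13e-08). SMC2 against SMC1 was not called (0.05 ± 0.320, adjusted p = 0.928).

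Cfb (ENSMUSG00000090231) lies at chr17:34856374-34862518 on the minus strand, 85 bases from C2. It had 0.138, 0.198 and 0.240 CPM in SMC2 and 0.662, 0.187 and 0.176 CPM in SMC1, which are 3, 4 and 4 raw counts and 13, 4 and 3 raw counts. It had 7.15, 8.54 and 7.60 CPM in Intermediate, against 5.83, 7.73 and 6.95 CPM in Progenitor. The 2 stromal populations overlapped, as did the 2 smooth muscle populations. Cfb was lower in SMC2 than in Progenitor (log2 change -5.13 ± 0.427, adjusted p = 2.87e-09) and than in Intermediate (log2 change -5.31 ± 0.427, adjusted p = 1.6e-09). It was lower in SMC1 than in Progenitor (log2 change -4.29 ± 0.392, adjusted p = 1.25e-08; -5.25 without SMC1 replicate 1) and than in Intermediate (log2 change -4.47 ± 0.392, adjusted p = 8.22e-09; -5.35 without SMC1 replicate 1). Intermediate against Progenitor was not called (0.19 ± 0.300, adjusted p = 0.706), nor was SMC2 against SMC1 (-0.84 ± 0.550, adjusted p = 0.249).

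The levels of C2 and Cfb per length carry a limit. The gene model Gm20547 runs over both on the same strand and shares 79.5% of the exon bases of Cfb and 42.8% of those of C2. Zbtb12, on the opposite strand, shares 4.16% of the exon bases of C2, which brings the shared part of C2 to 46.9%. Of 1247 annotated genes whose exon bases are all shared, 1238 had no entry among those used here, against 43.1% of the 43640 genes that share none. These are genes of all types. The 9 fully shared genes with an entry did carry counts, with a median total of 78 beside 87 for entries that share none. How shared reads were counted is not stated in the sources used here. If shared bases gave no counts, the level of C2 per unshared kilobase would be 0.707 CPM in SMC2, 0.207 CPM in SMC1, 9.65 CPM in Intermediate and 8.53 CPM in Progenitor. That of Cfb would be 0.331 CPM in SMC2, 0.590 CPM in SMC1, 13.4 CPM in Intermediate and 11.8 CPM in Progenitor.

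C6 and C7 encode parts of the terminal complex that join it in turn, and their highest levels lay in different populations. Both genes lie on chromosome 15, C6 (ENSMUSG00000022181) at chr15:4727175-4814967 on the plus strand and C7 (ENSMUSG00000079105) at chr15:4988762-5063740 on the minus strand, 173794 bases apart. C7 had 9.66, 21.1 and 22.3 CPM in SMC2 and 43.8, 29.6 and 22.7 CPM in SMC1. It had 2768, 2852 and 2658 CPM in Intermediate, against 1544, 2123 and 2451 CPM in Progenitor. The libraries of no 2 populations overlapped, though SMC2 and SMC1 nearly met. C7 was lower in SMC2 than in Progenitor (log2 change -6.85 ± 0.355, 116-fold, adjusted p = 5.76e-12) and lower than in Intermediate (log2 change -7.29 ± 0.362, 156-fold, adjusted p = 3.4e-12). It was lower in SMC1 than in Progenitor (log2 change -5.99 ± 0.340, adjusted p = 2.23e-11) and than in Intermediate (log2 change -6.43 ± 0.347, adjusted p = 1.55e-11). Intermediate against Progenitor was not called (0.44 ± 0.274, adjusted p = 0.274). C7 was lower in SMC2 than in SMC1 (log2 change -0.86 ± 0.284, adjusted p = 0.0237), a call lost without SMC2 replicate 1 (-0.59, adjusted p = 0.0814) or SMC1 replicate 1 (-0.58, adjusted p = 0.138), with upper-quartile factors (-0.72, adjusted p = 0.0774) and in a fit of these 2 groups only (-0.77, adjusted p = 0.138).

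C6 was the exception among the 9 genes. It had 33, 50 and 70 raw counts in SMC2 and 2, 2 and 5 in SMC1, and 5, 12 and 6 in Intermediate, against 23, 15 and 21 in Progenitor. In CPM these were 1.52, 2.47 and 4.20 in SMC2 and 0.102, 0.0933 and 0.293 in SMC1, and 0.311, 0.754 and 0.383 in Intermediate, against 1.05, 1.0 and 1.33 in Progenitor. In CPM no 2 populations overlapped, in the order SMC2, Progenitor, Intermediate and SMC1 from the top. Intermediate and SMC1 nearly met, at 0.311 CPM in Intermediate replicate 1 and 0.293 CPM in SMC1 replicate 3. Both of these libraries had 5 raw counts. C6 was higher in SMC2 than in SMC1 by 4.05 ± 0.577 (adjusted p = 1.17e-05; 4.68 without SMC1 replicate 3) and higher than in Intermediate by 2.47 ± 0.509 (adjusted p = 0.000418). It was higher in SMC2 than in Progenitor by 1.27 ± 0.464 (adjusted p = 0.0311). That call was lost without SMC2 replicate 2 (1.25, adjusted p = 0.0776) or 3 (0.75, adjusted p = 0.236), and without Progenitor replicate 1 (1.21, adjusted p = 0.0888) or 2 (1.19, adjusted p = 0.0896). It was also lost with no filter on low counts (1.14, adjusted p = 0.0695). C6 was lower in SMC1 than in Progenitor (log2 change -2.79 ± 0.597, adjusted p = 0.000634; -3.50 without SMC1 replicate 3). SMC1 against Intermediate missed the threshold (-1.58 ± 0.647, adjusted p = 0.0567). It passed without SMC1 replicate 3 (-2.21, adjusted p = 0.0271), Intermediate replicate 1 (-1.81, adjusted p = 0.0443) or SMC2 replicate 1 (-1.56, adjusted p = 0.0481). Intermediate against Progenitor was not called (-1.21 ± 0.526, adjusted p = 0.108).

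Serping1 (ENSMUSG00000023224) encodes the C1 inhibitor, which also restrains plasma kallikrein, and lies at chr2:84765387-84775444 on the minus strand. It had 1207, 919.7 and 851 CPM in SMC2 and 357, 235 and 314 CPM in SMC1. It had 6326, 4792 and 4198 CPM in Intermediate, against 3857, 4612 and 4062 CPM in Progenitor. The stromal populations overlapped, and SMC2 stood between them and SMC1 with no overlap on either side. Serping1 was lower in SMC2 than in Progenitor (log2 change -2.07 ± 0.225, adjusted p = 1.51e-07) and in SMC1 (log2 change -3.79 ± 0.242, adjusted p = 5.78e-11). Against Intermediate it was lower in SMC2 (-2.36 ± 0.228, adjusted p = 2.5e-08) and in SMC1 (-4.08 ± 0.245, adjusted p = 3.42e-11). It was higher in SMC2 than in SMC1 by 1.72 ± 0.223 (3.28-fold, adjusted p = 3.56e-06). Intermediate against Progenitor was not called (0.29 ± 0.217, adjusted p = 0.367).

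The remaining level in the smooth muscle populations differed between members. As a percent of the Progenitor mean, SMC2 held 27.8% of C1s1, 23.8% of Serping1, 10.9% of C4b, 8.9% of C1ra, 8.3% of C2, 2.81% of Cfb, 2.02% of C3 and 0.866% of C7, and 243% of C6. The 9 fibroblast or stromal markers in SMC2 were at 0.854% (Pdgfra) to 3.21% (Col1a1) of Progenitor. In SMC1 the percents ran from 1.57% for C7 and 1.95% for C3 to 8.61% for C1s1 and 14.5% for C6. The stromal markers in SMC1 were at 0.93% (Dcn) to 3.22% (Dpp4), apart from the collagens Col3a1 at 18.3% and Col1a1 at 27.8%. As a percent of the Intermediate mean, the members and the markers overlapped more in SMC2, but not in SMC1. SMC2 held 63.3% of C1s1, 19.4% of Serping1, 13.2% of C1ra, 12.4% of C4b, 7.33% of C2, 5.25% of C3, 2.47% of Cfb and 0.64% of C7, and 566% of C6, while the markers were at 0.879% (Pdgfra) to 6.86% (Ly6a) and 14.2% (Dpp4). SMC1 held 1.16% of C7 to 19.6% of C1s1 and 33.7% of C6, and the markers were at 1.28% (Dcn) to 21.9% (Dpp4).

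Within SMC2, replicate 1 had the highest C1s1 and Serping1 but the lowest level of the other 7 members. It also had the lowest stromal Dcn, 252 CPM beside 507 and 512 CPM. Within SMC1, replicate 1 had the highest level of each member but C6. That library also had the highest Dcn, 562 CPM beside 300.1 and 206 CPM, and the highest summed macrophage markers, 556 CPM beside 116 and 137 CPM. Lyz2 alone made up most of the macrophage sum in each SMC1 library, at 482, 85.2 and 100.2 CPM. The 8 macrophage markers summed to 114 to 238 CPM in SMC2 and 116 to 556 CPM in SMC1. They summed to 79.5 to 118 CPM in Intermediate and 104 to 139 CPM in Progenitor. Of the 7 tested, 3 were higher in SMC1 than in Progenitor (25.3% of all genes). What part stromal or macrophage RNA had in these levels was not tested. Without SMC1 replicate 1, 9 members were lower in SMC1 than in Progenitor and 8 lower than in Intermediate, and 5 were higher and 0 lower in SMC2 than in SMC1.

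**Figure D4:**
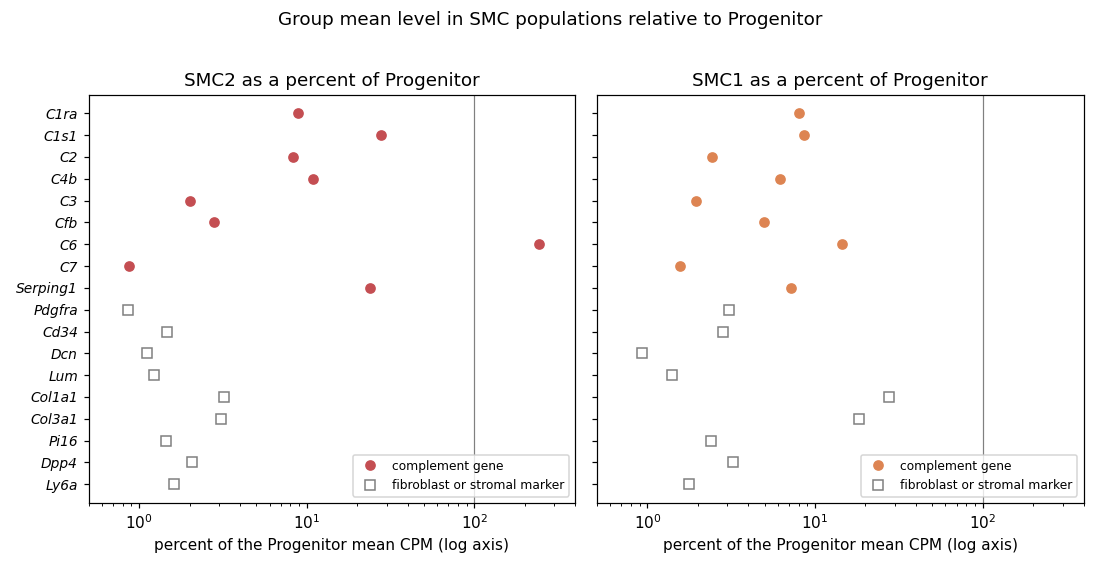
Mean CPM in SMC2 (left) and SMC1 (right) as a percent of the mean CPM in Progenitor (log axes), for the 9 complement genes (filled circles) and 9 fibroblast or stromal markers (open squares). In SMC2, C1s1 at 27.8% and Serping1 at 23.8% stand right of every marker, whose highest is Col1a1 at 3.21%, while C7 at 0.866% is among the markers.

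Other complement components were less uniform. Of 22 listed genes, 15 were tested. In SMC2 against SMC1, 3 were higher (16.5% of all genes), 1 lower (18.1%) and 11 not called (median log2 change -0.07). SMC1 against Progenitor had 4 higher (25.3% of all genes), 4 lower (23.1%) and 7 not called (median 0.43). In Intermediate against Progenitor 2 were higher (12.7% of all genes), 1 lower (9.46%) and 12 not called (median -0.21). Cfd, factor D or adipsin, which cleaves factor B, had 427, 582 and 700.0 CPM in SMC2 and 10.9, 1.63 and 5.80 CPM in SMC1. It had 0.249, 3.20 and 1.53 CPM in Intermediate, against 3.42, 0.800 and 0.758 CPM in Progenitor. Cfd was higher in SMC2 than in SMC1 by 6.54 ± 0.858 (adjusted p = 0.000284), in the population where Cfb had 3 to 4 raw counts a library. All 7 tested adipocyte markers were also higher in SMC2 than in SMC1 (16.5% of all genes). They summed to 1864 to 2263 CPM in SMC2 and 146 to 295 CPM in SMC1. They summed to 51.1 to 73.1 CPM in Intermediate and 133 to 169 CPM in Progenitor. Among them Adipoq had 59.7 to 114 CPM in SMC2 while Ucp1 had 0.96 to 1.04 CPM, and their part in the level of Cfd was not tested. The C1q genes C1qa, C1qb and C1qc, products mainly of macrophages, were each at 0.746 to 27.3 CPM in all libraries and highest in SMC1 replicate 1. Colec11, a lectin pathway collectin, was lowest in Progenitor, and was higher in Intermediate by 3.42 ± 0.297 (adjusted p = 1.14e-07).

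Of 21 listed regulators, 14 were tested. In Intermediate against Progenitor 4 were higher (12.7% of all genes), 2 lower (9.46%) and 8 not called (median 0.10). SMC2 against SMC1 had 3 higher (16.5% of all genes), 4 lower (18.1%) and 7 not called (median 0.02). In SMC1 against Progenitor 3 were higher (25.3% of all genes), 6 lower (23.1%) and 5 not called (median -1.50). The membrane inhibitors Cd55 and Cd59a ran in opposite directions. Cd55, which speeds the decay of C3 convertases, was lower in SMC1 than in Progenitor (log2 change -5.13 ± 0.474, adjusted p = 9.14e-07), and Cd59a, which blocks the terminal pore, was higher by 2.54 ± 0.158 (adjusted p = 4.08e-11).

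**Figure D5:**
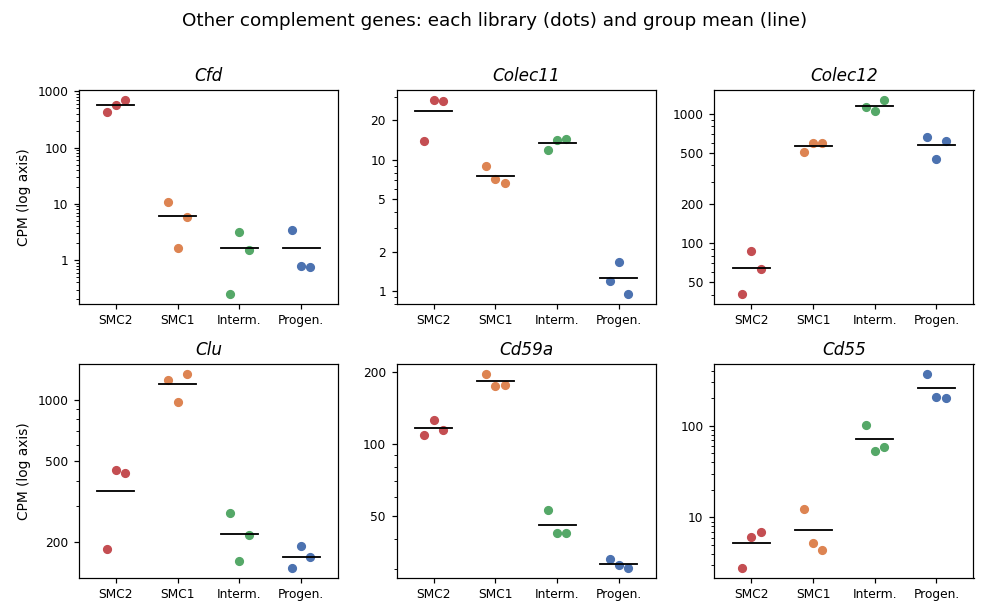
Level in CPM (vertical log axes, scaled separately) of 6 other complement genes in the 12 libraries, with dots for libraries and a line for the group mean of 3. Cfd stands at 427 to 700.0 CPM in SMC2 and at most 10.9 CPM elsewhere.

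Receptors and transcription factors known to induce complement genes, such as those of interferons and interleukins, were listed as 20 genes, all tested. In SMC1 against Progenitor 1 was higher (25.3% of all genes), 18 lower (23.1%) and 1 not called (median -1.37). SMC2 against Progenitor had 4 higher (23.1% of all genes), 13 lower (21.7%) and 3 not called (median -1.08). In SMC2 against SMC1 9 were higher (16.5% of all genes), 4 lower (18.1%) and 7 not called (median 0.48). Intermediate against Progenitor had 1 higher (12.7% of all genes), 4 lower (9.46%) and 15 not called (median -0.16). Irf1, an interferon-regulated transcription factor, had 611, 532 and 463 CPM in SMC2 and 116, 104 and 82.2 CPM in SMC1. It had 301, 253 and 323 CPM in Intermediate, against 336, 293 and 308 CPM in Progenitor. Irf1 was higher in SMC2 than in SMC1 by 2.41 ± 0.187 (adjusted p = 4.18e-09), and Cebpb, an acute phase transcription factor, by 2.20 ± 0.203 (adjusted p = 4.5e-08). The 11 genes of the dissociation response summed to 13010 to 15350 CPM in SMC2, 9790 to 11000 CPM in SMC1, 11500 to 14350 CPM in Intermediate and 8696 to 9829 CPM in Progenitor. Their part in the SMC2 levels was not tested.

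The genes beside C2, Cfb and C4b in the genome were listed too. Of 11 listed neighbours, 8 were tested. In SMC1 against Progenitor 3 were higher (25.3% of all genes), 1 lower (23.1%) and 4 not called (median -0.15). SMC2 against Progenitor had 1 higher (23.1% of all genes), 3 lower (21.7%) and 4 not called (median -0.09). Tnxb, a tenascin gene beside C4b, was lower in SMC2 than in Progenitor (log2 change -3.78 ± 0.333, adjusted p = 5.96e-08).

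For each member, the most similar profiles over the 12 libraries were sought among 7622 named genes, by the root mean square difference of log2 CPM after centring each gene. C1s1 was closest to its copy C1s2 (0.104) and to Irak3 (0.123). C1ra was closest to Man1a (0.205) and Spon1 (0.263), C2 to Acp5 (0.308) and Serpina3n (0.345), and C3 to Pcsk6 (0.403) and Srpx (0.447). C4b was closest to Cmtm3 (0.382) and Marcks (0.387), C7 to Smoc2 (0.317) and Ptgfr (0.359), and Cfb to Slc43a3 (0.271) and Rab3il1 (0.278). Serping1 was closest to Cxcl12 (0.333) and Zfp521 (0.391). C6 had the loosest matches, Ephx2 (0.59) and Il15ra (0.649). It had 2 to 70 raw counts a library, below the 4 log2 CPM asked of the genes compared. What part low counts had in these differences was not tested. Between members the same measure was smallest for C1ra with C4b (0.427) and largest for C6 with C7 (3.73). C2 and Cfb, 85 bases apart, differed by 0.737, and C1ra and C1s1 by 0.84.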

How the data were processed

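Raw read counts per gene and library were deposited by the authors as whole numbers. The authors also deposited normalized counts (a signal: counts divided by a size factor) and regularized log2 values. Per the submitters' processing notes the tools were STAR 2.5.2a and DESeq2 1.26.0, and the build was mm10. Which program counted reads, and on which annotation, is not given in the sources used here. Per the labels' protocols, cells from collagenase and dispase digests were sorted into serum buffer. Their RNA was purified from Trizol and amplified with a SMART-Seq v4 kit for very low input, which does not mark strand. Symbols came from the deposited table (21248) or from GENCODE M21 by identifier (12075), and 29 entries had none.

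Tests used edgeR 4.0.16, with limma 3.58.1 under R 4.3.3. The 19016 genes kept by filterByExpr were fitted with 1 mean for each group in all 12 libraries, TMM factors, robust dispersions and 8 residual degrees of freedom. Two-sided quasi-likelihood F tests were adjusted by Benjamini-Hochberg within each of 6 comparisons, with a threshold of 0.05. Standard errors were taken as the log2 change over the square root of its F value. The code was tested on simulated data. Alternatives were other scaling factors, other filters, DESeq2 1.42.0, limma on the regularized log2 values, a fit of 2 groups only, a replicate block and leaving out each library.

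All 9 members are described. Genes of other lists are named where they passed the test, at most 4 a list and comparison, by level per length. Adipoq, Ucp1, Dcn, Tek, Lyz2 and the C1q genes were chosen after their values were seen. Similar genes needed a mean of at least 4 log2 CPM. The members and lists were chosen with earlier results of these data known. Same-numbered Intermediate and Progenitor libraries deviated together (correlations 0.171, 0.191 and 0.17, each over 0.1). Those libraries met the criterion for pairing, but the values reported for that comparison come from the fit without the block, and the block changed no member's call there. Replicates differed beyond sampling noise (chi-square per degree of freedom at least 8.17). Depth was 13258631 to 22647175 counts, and amplified fragments are not independent molecules. The values of 1 listed regulator are not reported here.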

Additional observations from a re-analysis of the deposited data

How the results depend on the processing

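Of the log2 changes of single members under other settings, 1046 kept their direction and their side of the threshold, 21 lost the call, 4 gained it and 7 reversed, none of the 7 being called. Of the counts of called genes and members, 468 stayed within 1.5 times and 12 did not. Both tallies include fits that left out a library from outside the populations compared. Such fits bear on a comparison only through the filter, the scaling factors and the shared spread. With upper-quartile factors 1593 genes were higher in Intermediate than in Progenitor, beside 2419 with TMM, and 2473 were lower, beside 1799, so the higher share of calls was 39.2% beside 57.3% (49.8% with median-of-ratios factors). In SMC1 against Progenitor that share was 41.3% beside 52.3%. The median change of all genes moved to -0.08 in Intermediate against Progenitor, -0.19 in SMC1 against Progenitor, 0.11 in SMC2 against SMC1 and 0.12 in SMC2 against Intermediate, and no member reversed for it. Leaving out 1 library gave 1600 to 2479 genes higher and 1155 to 2250 lower in Intermediate than in Progenitor. The members higher in SMC2 than in Progenitor ranged from 0 to 1, and were 0 with no filter (C6 1.14, adjusted p = 0.0695). The members lower in SMC2 than in SMC1 ranged from 0 to 1, and were 0 with upper-quartile factors (C7 -0.72, adjusted p = 0.0774) and with 2 groups only (C7 -0.77, adjusted p = 0.138), where C4b also lost its call (adjusted p = 0.0511). Reversed values were C3 in SMC2 minus SMC1 at -0.078 with no filter, and -0.082, -0.12, -0.19 and -0.18 without SMC2 replicate 2 or 3 or SMC1 replicate 2 or 3 (range over all libraries left out -0.19 to 0.55). Cfb there reached 0.045 without SMC1 replicate 1 (range -1.19 to 0.045), and C4b in Intermediate minus Progenitor 0.25 without Progenitor replicate 3 (range -0.39 to 0.25). The cause was not tested.

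With the replicate block, 3 members were lower in Intermediate than in Progenitor, as without it, with C3 at -1.37, C1s1 at -1.19 and C1ra at -0.57. The other comparisons did not meet the criterion for pairing, though the labels use the same numbers in all 4 populations. At least 1 correlation per comparison was at or below 0.1 (lowest -0.02, highest 0.35). Libraries matched their own number best for 6 of 6 in SMC2 with SMC1, 2 of 6 in SMC1 with Progenitor and 4 of 6 in the rest. In these 5 comparisons the block called C6 lower in SMC1 than in Intermediate (-1.61, adjusted p = 0.0397) and changed no other call of a member. Depth limits C6 in SMC1 (2, 2 and 5 counts) and Cfb in SMC2 (3, 4 and 4 counts). It also limits C2 (14, 7 and 4 counts) and Cfb (13, 4 and 3 counts) in SMC1.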

Other observations

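The contact and kinin system, which the C1 inhibitor also restrains, had 6 of 10 listed genes tested. In SMC2 against Progenitor 1 was higher (23.1% of all genes) and 5 lower (21.7%), with a median log2 change of -2.77. SMC1 against Progenitor had 5 lower (23.1% of all genes) and 1 not called (median -3.15). Intermediate against Progenitor had 2 higher (12.7% of all genes), 3 lower (9.46%) and 1 not called (median -1.39). Bdkrb1, an inducible bradykinin receptor, had 0.230, 0 and 0.660 CPM in SMC2 and 1.07, 0.513 and 0.176 CPM in SMC1. It had 22.8, 22.7 and 18.3 CPM in Intermediate, against 6.52, 4.33 and 4.93 CPM in Progenitor. Bdkrb1 was higher in Intermediate than in Progenitor by 2.01 ± 0.398 (adjusted p = 0.00151), while Kng2, a kininogen gene, was lower (log2 change -2.49 ± 0.276, adjusted p = 2.12e-06).

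Of 16 listed acute phase genes, 14 were tested. In SMC2 against SMC1 8 were higher (16.5% of all genes), 1 lower (18.1%) and 5 not called (median 1.75). SMC1 against Progenitor had 1 higher (25.3% of all genes), 9 lower (23.1%) and 4 not called (median -3.20). Intermediate against Progenitor had 6 lower (9.46% of all genes) and 8 not called (median -0.76). Hp, the haemoglobin-binding haptoglobin, had 124, 199.8 and 255 CPM in SMC2 and 8.65, 1.68 and 5.04 CPM in SMC1. It had 2.24, 5.90 and 6.004 CPM in Intermediate, against 262, 224 and 368 CPM in Progenitor. Hp was higher in SMC2 than in SMC1 by 5.24 ± 0.556 (adjusted p = 1.46e-05) and lower in Intermediate than in Progenitor (log2 change -5.91 ± 0.576, adjusted p = 2.12e-05). Itih4 had 489, 406 and 571 CPM in SMC1, against 1.60, 5.33 and 7.33 CPM in Progenitor, and was higher by 6.72 ± 0.420 (adjusted p = 1.52e-09). All 11 complement receptor genes were tested. In SMC1 against Intermediate 7 were higher (19.7% of all genes), 1 lower (21.9%) and 3 not called (median 1.25). Of 6 leukocyte markers, 3 were higher there. Against Progenitor, 3 receptors were higher (25.3%) and 1 lower (23.1%) in SMC1, and 2 higher (23.1%) and 1 lower (21.7%) in SMC2. SMC2 had 3 higher (21.4%) and 1 lower (23.2%) than Intermediate, and 2 higher (16.5%) and 3 lower (18.1%) than SMC1. Intermediate against Progenitor had 0 higher (12.7%) and 0 lower (9.46%). Itgb2, an integrin of leukocytes, had 22.4, 6.39 and 7.09 CPM in SMC1, against 5.22, 4.27 and 3.90 CPM in Intermediate, so SMC1 replicate 1 stood apart from the other SMC1 libraries.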
